A study of Homo sapiens with 6 samples.

Results

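Nucleic acid sensors and their adaptors were described in KMS27 cells with and without HA-TAZ overexpression. The 9 genes are DDX58, IFIH1, DHX58, MAVS, TLR3, ZBP1, EIF2AK2, MB21D1 and TMEM173. They were chosen by gene symbol, with earlier results of these data known. The symbols matched 10 of 63677 gene IDs, because DHX58 has 2 IDs, and these 10 IDs held 63 of 215170 transcripts. KMS27 is an established human myeloma cell line, a line of malignant plasma cells. One group is labelled wild type and the other HA-TAZ, with 3 libraries in each, and both are of the same line. TAZ is the product of WWTR1, a coactivator of transcription that the Hippo pathway restrains, and HA is a short peptide tag on it. The vector, its promoter, the time after its introduction and the number of clones or cultures are not given in the sources used here, and the labels speak of libraries made in triplicate, so p-values measure only the spread between these libraries, which may be technical. The titles of the wild type samples also carry HA, and the columns taken as wild type carry the name scr, which is in no label. These columns were assigned by elimination and are named control a, b and c.

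Cells detect foreign or misplaced nucleic acid with sensor proteins. RIG-I (DDX58) and MDA5 (IFIH1) are cytosolic helicases that bind viral RNA and signal through the adaptor MAVS on mitochondria, and LGP2 (DHX58) is a related helicase that lacks their signalling domain and modulates them. TLR3 reads double-stranded RNA in endosomes, ZBP1 binds Z-form nucleic acid and can start necroptosis, and PKR (EIF2AK2) is a kinase that is activated by double-stranded RNA and halts translation through eIF2 alpha. The enzyme cGAS (MB21D1) binds double-stranded DNA in the cytosol and makes a cyclic dinucleotide that activates STING (TMEM173) on the endoplasmic reticulum. The RNA and DNA branches both lead to the kinases TBK1 and IKK epsilon, to IRF3 and NF-kB, and to interferon genes. Several of the sensors are themselves interferon-stimulated genes, which carry a promoter element called ISRE.

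Promoter windows are shown because that element is the sequence feature by which several sensors are known to respond to interferon. RefSeq promoters (GRCh38.p14, 250 bases before to 50 after the start) were in the table used for 5 of the 9 genes, namely DDX58, IFIH1, MAVS, TLR3 and EIF2AK2. The other 4 are DHX58, ZBP1, MB21D1 and TMEM173. The ISRE core searched was GAAANNGAAA on either strand, and 3.57% of 35116 promoters of this length hold it. It was found in IFIH1, TLR3 and EIF2AK2. The windows below are read on the strand of the gene, and capitals mark the match.
IFIH1 (chr2:162318686-162318715, minus strand, match from 21 bases before the start): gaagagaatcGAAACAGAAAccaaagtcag
EIF2AK2 (chr2:37156967-37156996, minus strand, match from 6 bases before the start): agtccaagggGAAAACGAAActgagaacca
TLR3 (chr4:186069142-186069171, plus strand, match from 4 bases before the start, on the opposite strand): caagctttacTTTCACTTTCgagagtgccg
In IFIH1, 2 further matches on the opposite strand overlap each other, and the first of them begins 159 bases before the start.
The TEAD site GGAATG, the element of the DNA-binding partners of TAZ, was found on either strand in TLR3 alone of the 5 promoters, where 14% of promoters hold it. There it overlapped 1 of 2 matches to the GAS element TTCNNNGAA, which 7.66% of promoters hold. MAVS and DDX58 held none of these 3 motifs. These are matches of letters in a window and do not show that a factor binds.

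Values are the TPM that the authors deposited, which is corrected for transcript length and expresses a share of the library, so levels of different genes can be compared. Scaled TPM is TPM divided by a factor per library, which was 0.866 to 0.967 in HA-TAZ and 1.06 to 1.21 in control libraries, so the choice of scale moves all genes between the groups. The median log2 fold change of all 22651 genes tested was −0.03 with scaled TPM and −0.27 with TPM as deposited. WWTR1, which checks the labels, reached 297 ± 7.42 TPM with HA-TAZ against 2.20 ± 0.497 TPM without it (SD, n = 3 each). All 9 plasma cell markers were at 3.50 TPM or more in every library, and JCHAIN, listed as IGJ, reached 4082 TPM. Markers of T cells, myeloid cells, plasmacytoid dendritic cells, epithelium, stroma and mature B cells numbered 26. In each of the first 5 types 1 marker was at 1 TPM or more in every library, namely CD3G (up to 1.86 TPM), CSF1R (1.97), IL3RA (6.25), KRT8 (4.51) and DCN (3.24). In the same types CD3D, LYZ, LILRA4, KRT19 and COL3A1 were listed at 0 in at least 1 library and reached at most 0.206 TPM, and all 3 mature B cell markers stayed at 0.198 TPM or less. ITGAM (0.478 to 1.63 TPM), CDH1 (0.877 to 1.42) and COL1A1 (0.832 to 2.12) passed 1 TPM in some libraries only. In bulk RNA, fewer cells that express a gene and less RNA of it per cell cannot be told apart.

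Of the 9 genes, IFIH1 and TMEM173 rose in HA-TAZ libraries, and none fell. A change is called here at a Benjamini-Hochberg adjusted p-value under 0.05, over all genes whose TPM averaged at least 1, in limma on log2(scaled TPM + 1). Of all genes tested, 7.29% were called, 4.67% higher and 2.63% lower. Of the 10 gene IDs, 8 passed the filter on level, 2 of these were called higher and 6 were not called. All 8 log2 fold changes were above 0 on this scale, as were 46.7% of those of all genes. The median was 0.06 for protein-coding genes and −0.03 for all genes tested. MAVS, ZBP1 and EIF2AK2 were below 0 with TPM as deposited and with factors from protein-coding genes, and MB21D1 with TPM as deposited. TLR3 and the second ID of DHX58 were below the filter. The scaled TPM of HA-TAZ libraries lay above that of all controls for IFIH1, DHX58, DDX58, MB21D1 and TMEM173, and 20.2% of all genes tested did the same, while 18.3% lay lower without overlap. As deposited, IFIH1 and DHX58 were higher without overlap and MAVS was lower, against 4.41% and 43.6% of all genes. In scaled TPM, the other 3 tested genes, MAVS, EIF2AK2 and ZBP1, overlapped between the groups.

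**Figure D1:**
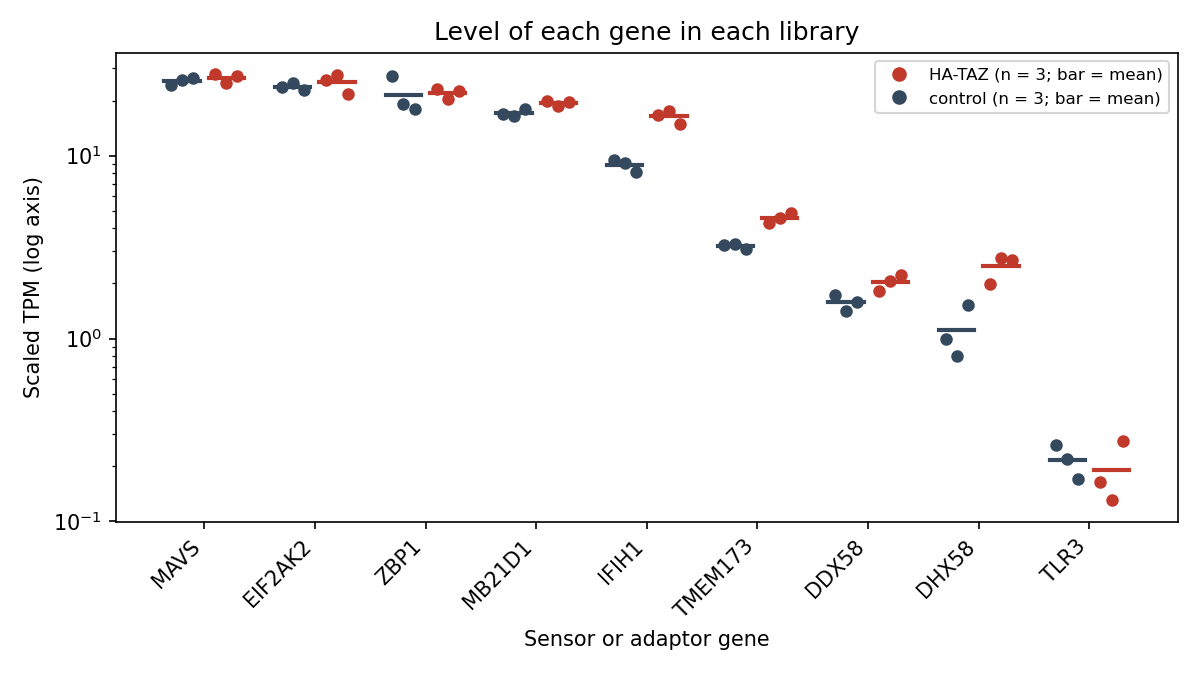
Scaled TPM (log axis) of each of the 9 genes in each library, ordered by the mean TPM of the controls, with points for the 3 control and 3 HA-TAZ libraries and bars for the group means. IFIH1 and TMEM173 separate without overlap, while the points of MAVS, EIF2AK2, ZBP1 and TLR3 overlap.

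IFIH1 (ENSG00000115267, chromosome 2) encodes MDA5, which binds long double-stranded RNA. Its TPM was 14.5, 17.0 and 13.3 in libraries 1, 2 and 3 of HA-TAZ, against 11.5, 9.98 and 8.61 in controls a, b and c. The lowest HA-TAZ library lay above the highest control both as deposited and after rescaling. Its log2 fold change was 0.81 (SE 0.09), a 1.75-fold rise on this scale (limma, Benjamini-Hochberg adjusted p = 0.0128). The 95% interval of the fold ran from 1.51 to 2.03. IFIH1 kept its call under each scaling tried, with a log2 fold change of 0.53 and an adjusted p of 0.0494 (limma) for TPM as deposited. The call was lost without HA-TAZ 1, HA-TAZ 2 or control b, with adjusted p-values (limma) of 0.0667, 0.0600 and 0.0566, while the log2 fold change stayed between 0.75 and 0.87 whichever library was left out.

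DDX58 (ENSG00000107201, chromosome 9) encodes RIG-I, which reads short RNA ends with a triphosphate. It was low in both groups, at 1.57, 1.98 and 1.97 TPM in HA-TAZ and 2.10, 1.55 and 1.68 TPM in control libraries. As deposited the groups overlapped, and after rescaling they did not. The log2 fold change of 0.23 (SE 0.11) did not pass the test (limma, Benjamini-Hochberg adjusted p = 0.204), and its 95% interval of −0.03 to 0.49 includes no change. DHX58 (ENSG00000108771, chromosome 17), which encodes LGP2, was at 1.72, 2.66 and 2.40 TPM in HA-TAZ and 1.20, 0.880 and 1.61 TPM in control libraries. The lowest HA-TAZ value stood just above the highest control. Its log2 fold change of 0.73 (SE 0.17) missed the threshold (limma, Benjamini-Hochberg adjusted p = 0.0582). It was near that of IFIH1 only on log2(scaled TPM + 1), which understates changes of low genes. The ratio of mean scaled TPM was 2.24 for DHX58 and 1.84 for IFIH1. The second DHX58 ID, ENSG00000260178, was below the filter at 0.314 ± 0.0494 TPM with HA-TAZ against 0.139 ± 0.0757 TPM without it (SD, n = 3 each). One of its transcripts has the same TPM in every library as the DHX58 transcript ENST00000251642.3, so reads of the gene were split over the IDs. The sum of both IDs was 2.58 ± 0.439 and 1.37 ± 0.376 TPM (SD, n = 3 each, exact permutation p = 0.1).

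MAVS (ENSG00000088888, chromosome 20), the adaptor shared by RIG-I and MDA5, had the highest mean TPM of the 9 genes in both groups. Its TPM was 24.1 in each of the HA-TAZ libraries and 29.5, 28.2 and 28.0 in controls a, b and c. The direction of MAVS depended on the scale. As deposited it lay lower in all HA-TAZ libraries and fell by 0.23 on the log2 scale (limma, Benjamini-Hochberg adjusted p = 0.0465). This fall is smaller than the shift of −0.27 of the median gene on that scale. After rescaling the groups overlapped, and the log2 fold change was 0.06 (SE 0.06, limma, Benjamini-Hochberg adjusted p = 0.566), with a 95% interval of −0.09 to 0.21. A ratio of genes within a library needs no scaling factor. The TPM of IFIH1 divided by that of MAVS was 0.600, 0.702 and 0.553 in HA-TAZ and 0.389, 0.354 and 0.308 in control libraries. The groups of this ratio did not overlap, and it was 1.76-fold higher in HA-TAZ libraries (exact two-sided permutation p = 0.1, the smallest value for 3 against 3 libraries). The ratios to MAVS of DHX58, TMEM173 and MB21D1 were also higher without overlap, by 2.21, 1.36 and 1.09-fold (exact permutation p = 0.1 each), and those of DDX58, TLR3, ZBP1 and EIF2AK2 overlapped. These 8 ratios were added after the data were seen, and they show unequal changes of 2 genes, not that MAVS itself was constant. The share of all genes whose ratio to MAVS was higher without overlap was not computed. In scaled TPM, 20.2% of all genes tested were higher without overlap.

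**Figure D2:**
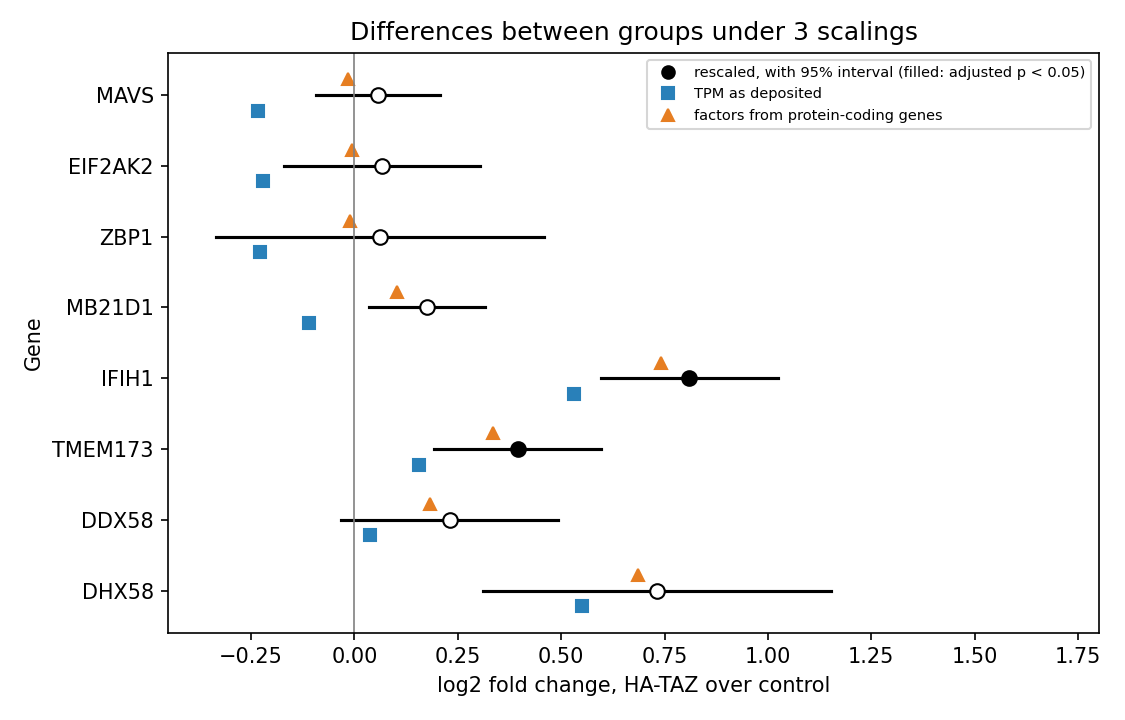
The log2 fold change of HA-TAZ over control (x axis) for the 8 genes above the filter on level, with circles and 95% intervals for scaled TPM, squares for TPM as deposited and triangles for factors from protein-coding genes. IFIH1, TMEM173, DDX58 and DHX58 stay above 0 on each of the 3 scales, MB21D1 falls below 0 with TPM as deposited, and MAVS, EIF2AK2 and ZBP1 do so on 2 of them.

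TLR3 (ENSG00000164342, chromosome 4), the endosomal sensor, was the lowest of the 9 genes. Its TPM was 0.143, 0.126 and 0.245 with HA-TAZ and 0.317, 0.238 and 0.180 in the controls, and the groups overlapped (exact permutation p = 0.3). Means in the authors' deposited table imply 57.2 estimated counts of TLR3 for a typical library, so a counting error of about 13.2% applies to each value. ZBP1 (ENSG00000124256, chromosome 20) was at 19.9, 19.9 and 20.1 TPM in HA-TAZ and 33.0, 20.8 and 18.9 TPM in control libraries. Control a stood far above the other controls. The log2 fold change of ZBP1 was 0.06 (SE 0.16, limma, Benjamini-Hochberg adjusted p = 0.821), with a 95% interval of −0.34 to 0.46. Without control a it was 0.24 (limma, adjusted p = 0.134).

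EIF2AK2 (ENSG00000055332, chromosome 2), which encodes PKR, was at 22.6, 26.7 and 19.4 TPM in HA-TAZ and 28.7, 27.4 and 24.1 TPM in control libraries. The groups overlapped on both scales. Its log2 fold change was 0.07 (SE 0.10, limma, Benjamini-Hochberg adjusted p = 0.669), with a 95% interval of −0.17 to 0.30, and it turned to −0.22 with TPM as deposited. IFIH1 and EIF2AK2 both hold the ISRE core shown above close to the start, with 3 matches in IFIH1 and 1 in EIF2AK2. IFIH1 was called and EIF2AK2 was not, and a link of the element to these values was not tested. The ratio of the 2 genes was not tested. In GENCODE release 29, GPATCH11 overlaps EIF2AK2 on the opposite strand. Its TPM was 16.3 ± 2.14 with HA-TAZ and 25.5 ± 4.25 in the controls (SD, n = 3 each). The strand setting of the quantification is not given in the sources used here, and the part of GPATCH11 in the values of EIF2AK2 was not tested.

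MB21D1 (ENSG00000164430, chromosome 6) encodes cGAS and was at 17.3, 18.1 and 17.5 TPM in HA-TAZ and 20.5, 17.9 and 19.0 TPM in control libraries. As deposited the groups overlapped, and after rescaling all HA-TAZ libraries lay above the controls. The log2 fold change of 0.18 (SE 0.06) did not pass (limma, Benjamini-Hochberg adjusted p = 0.107), its interval was 0.04 to 0.32, and it turned to −0.11 with TPM as deposited. DDX43 overlaps this gene on the opposite strand and had a TPM of 0.961 ± 0.194 with HA-TAZ against 1.82 ± 0.323 without it (SD, n = 3 each). TMEM173 (ENSG00000184584, chromosome 5) encodes STING, which cGAS activates. Its TPM was 3.70, 4.39 and 4.30 with HA-TAZ and 3.94, 3.59 and 3.28 in the controls. As deposited HA-TAZ 1 lay between the controls, and after rescaling all HA-TAZ libraries lay above them, at 4.27 to 4.83 against 3.10 to 3.29 scaled TPM. The mean scaled TPM of HA-TAZ libraries was 1.41 times that of the controls. The log2 fold change was 0.39 (SE 0.08), a 1.31-fold rise of scaled TPM + 1 with a 95% interval of 1.14 to 1.51. TMEM173 was called (limma, Benjamini-Hochberg adjusted p = 0.0475). This call was at the edge of the threshold. It was lost with TPM as deposited (log2 fold change 0.16, limma, adjusted p = 0.308), with factors from protein-coding genes (0.34, adjusted p = 0.0717) and in each of the 6 fits that left out a library (adjusted p of 0.0944 to 0.119).

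The order of the 9 genes by level was nearly the same in both groups. By the mean TPM of the controls it ran MAVS (28.6), EIF2AK2 (26.7), ZBP1 (24.3), MB21D1 (19.1), IFIH1 (10.03), TMEM173 (3.60), DDX58 (1.77), DHX58 (1.23) and TLR3 (0.245). In HA-TAZ libraries DDX58 and DHX58 changed places, at 1.84 and 2.26 TPM. Neighbours from MAVS to MB21D1, and DDX58 with DHX58, overlapped in the controls. MB21D1, IFIH1, TMEM173 and DDX58 were separated from each other without overlap. So the MDA5 gene was several times as abundant as the RIG-I gene in these cells, and the DNA sensor gene MB21D1 was more abundant than its partner TMEM173. Among all genes tested, the control level of MAVS stood at the 81.2 percentile, of IFIH1 at 57.7, of TMEM173 at 32.6 and of DDX58 at 12.7. The implied estimated counts for a typical library, from the means in the authors' deposited table, ran from 101 for DHX58 (ENSG00000108771) to 7932 for EIF2AK2, with 2383 for IFIH1 and 357 for TMEM173.

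Transcripts showed where these sums came from. Of the 63 transcripts, 11 were listed at 0 in every library, and 19 had a mean TPM of at least 1 and were tested. One was called, ENST00000263642.2 of IFIH1, where 0.456% of 57448 transcripts tested were called higher. This protein-coding transcript was at 12.3, 14.0 and 11.5 TPM in HA-TAZ and 8.60, 7.82 and 6.93 TPM in control libraries, again without overlap. Its log2 fold change was 0.90 (SE 0.08, limma, Benjamini-Hochberg adjusted p = 0.0194). It was not called with TPM as deposited, without a filter on level or in any of the 6 fits that left out a library. It took 84.5 ± 1.67% of the TPM of IFIH1 with HA-TAZ and 77.9 ± 2.81% without it (SD, n = 3 each, exact permutation p = 0.1), without overlap. How many of all genes had a leading transcript whose percent did not overlap between the groups was not computed. The second transcript of IFIH1, ENST00000421365.2, had a log2 fold change of 0.30 (limma, adjusted p = 0.334). In the authors' deposited table, ENST00000263642.2 had an effect of 0.709 in natural log units (SE 0.0634, q-value 1.18e-25).

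The authors' deposited table gave statistics for 43 of the 63 transcripts, and 2 had a q-value under 0.05, both with a positive effect, where 5.68% of all transcripts in it passed and 4.08% passed with a positive effect. The second was ENST00000370315.3 of MB21D1, a protein-coding transcript, whose effect in the authors' deposited table was 0.215 in natural log units (SE 0.0610, q-value 0.0126). This is a 1.24-fold rise. In the fit made here its log2 fold change was 0.26 and not called (limma, Benjamini-Hochberg adjusted p = 0.107). Of the 43 effects in the authors' deposited table, 31 were positive and 12 negative, where the median effect of all transcripts was −0.0025. The share of positive effects among all transcripts was not computed. Transcripts of a gene are not independent, and ENST00000251642.3 and ENST00000563880.1 of DHX58 have the same effect of 1.68.

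Among the tested members, TMEM173 alone had a retained intron as its leading transcript by mean TPM. This transcript, ENST00000507297.1, is typed so in GENCODE release 29 and it took 26.5 ± 2.45% of its TPM with HA-TAZ and 34.8 ± 3.01% without it (SD, n = 3 each, exact permutation p = 0.1). That transcript was not called (log2 fold change 0.06, limma, adjusted p = 0.785). The protein-coding transcript ENST00000330794.4 was at 0.992, 0.905 and 0.953 TPM in HA-TAZ and 0.381, 0.285 and 0.728 TPM in control libraries. The groups of this coding transcript did not overlap, but it was below the filter, and in the authors' deposited table its effect of 1.01 (SE 0.401) on the natural log scale had a q-value of 0.131. Protein-coding transcripts as a class took 44.2 ± 14.2% and 26.0 ± 7.91% of the TPM of TMEM173 (SD, n = 3 each), with overlap between the groups. The same class took 75.4% or more of MAVS, EIF2AK2, ZBP1, MB21D1 and IFIH1 in the controls. It took 44.5% of DHX58 and 53.7% of TLR3 there, so a coding share below that of these genes was not particular to TMEM173. For DDX58 it took 2.07%, but the rest of that gene's TPM is in transcripts with no type in GENCODE release 29. The leading transcript of DHX58, ENST00000589979.1, is typed as nonsense-mediated decay.

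**Figure D3:**
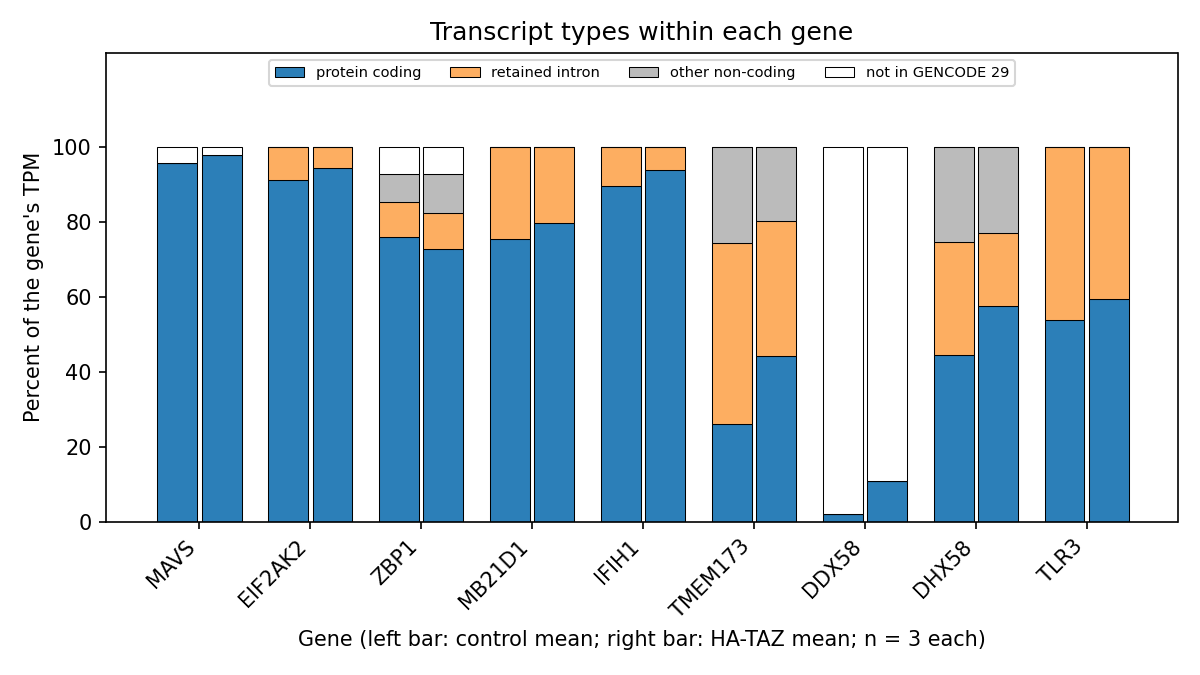
Percent of the TPM of each gene (y axis) in protein-coding, retained-intron, other non-coding and untyped transcripts, as means of the 3 control (left bar) and 3 HA-TAZ libraries (right bar). Coding transcripts hold most of MAVS, EIF2AK2, MB21D1 and IFIH1 and less of TMEM173, and most of DDX58 is in transcripts with no type in GENCODE release 29.

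None of the other tested transcripts was called (limma). For DDX58, 3 of 5 transcripts are not in GENCODE release 29, and they held 89.3 ± 1.49% and 97.9 ± 2.58% of its TPM in HA-TAZ and control libraries (SD, n = 3 each). The coding transcript ENST00000379883.2 was at 0.151, 0.200 and 0.245 TPM in HA-TAZ and 0, 0.0192 and 0.0831 TPM in control libraries. Its groups did not overlap, and its q-value in the authors' deposited table was 0.141. ENST00000371173.3 of ZBP1, a coding transcript, had a TPM of 1.85 ± 0.554 with HA-TAZ and 0.330 ± 0.344 without it (SD, n = 3 each), and its log2 fold change of 1.25 did not pass (limma, Benjamini-Hochberg adjusted p = 0.0751). The leading ZBP1 transcript, ENST00000453793.1, held the high value of control a, at 13.3 TPM against 4.69 and 3.58 TPM in the other controls. ENST00000411537.2 of EIF2AK2 was lower without overlap, at 0.782 ± 0.692 and 3.05 ± 1.12 TPM (SD, n = 3 each, limma, adjusted p = 0.173). ENST00000379883.2, ENST00000371173.3 and ENST00000411537.2 were named outside the naming rule. The share of all transcripts that did not overlap between the groups was not computed. The leading transcripts of MAVS (ENST00000428216.2) and EIF2AK2 (ENST00000233057.4) had log2 fold changes of 0.04 and 0.08 and were not called.

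The other genes of these pathways were read from 7 lists of 83 genes. In all, 71 were tested, 12 were called higher, 0 were called lower and 59 were not called (limma, adjusted p). Of all genes tested, 4.67% were called higher and 2.63% lower, which is also the background for the single lists below. At an unadjusted p-value under 0.05, 33 of the 71 were higher and 1 was lower, where 30.7% of all genes tested passed in either direction. The median log2 fold change of the 71 was 0.16, against −0.03 for all genes tested and 0.06 for protein-coding genes. On the deposited scale this median was −0.13, and 3 (AIM2, DDX60 and PPP1R15A) were called higher and 2 lower, where 1.15% and 13.5% of all genes were. Factors from protein-coding genes left 7 called higher and 0 lower, where 2.91% and 3.79% of all genes were. At a mean TPM of 5 or more, 10 were called higher and 0 lower, where 7.48% and 7.27% of all genes were. AIM2 and PPP1R15A were called in each of the 6 fits that left out a library, DDX60 in 4, IFI16, NLRC5, ADAR and CYLD in 2 each, and the other 5 in none.

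Among 19 regulators and adaptors of RIG-I-like receptors, 5 were called higher and 0 lower. DDX60, a helicase related to RIG-I-like receptor signalling, was at 4.88, 5.15 and 4.41 TPM in HA-TAZ and 1.16, 1.55 and 1.66 TPM in control libraries. It rose by 1.45 on the log2 scale (SE 0.13, limma, Benjamini-Hochberg adjusted p = 0.00910). ADAR, which edits double-stranded RNA so that MDA5 does not read it, rose by 0.33 (limma, adjusted p = 0.0128), and the sensor-like regulator NLRC5 by 0.67 (0.0139). CYLD, a deubiquitinase that restrains RIG-I, rose by 0.58 (0.0146), and MFN2, a mitochondrial fusion protein named outside the naming rule, by 0.36 (0.0444). PCBP2, which targets MAVS for degradation, and the RIG-I ligase RNF135 were not called, at 0.26 and 0.22. The ubiquitin ligase TRIM25, also a RIG-I regulator and named after its value was seen, was at −0.10. The rise of ADAR rests on the scale, since its means as deposited were 135 ± 6.16 and 132 ± 8.65 TPM (SD, n = 3 each).

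Among 15 tested kinases, TRAF proteins and factors below the adaptors, TANK alone was called, at 0.30 on the log2 scale (limma, Benjamini-Hochberg adjusted p = 0.0331). TANK is a scaffold of TBK1 and IKK epsilon, and its call was lost with TPM as deposited (0.01). The interferon factor IRF7 (0.66) and IKBKE, the gene of IKK epsilon (0.45), were not called. None of 6 tested partners of TLR3 and ZBP1 was called (limma, 3 at an unadjusted p-value under 0.05, all higher). TICAM1, the adaptor of TLR3, had a log2 fold change of 0.45 and FADD of 0.34. RIPK3, the kinase that ZBP1 recruits for necroptosis, was below the filter with a TPM of 0.0902 ± 0.0533 with HA-TAZ and 0.163 ± 0.0536 without it (SD, n = 3 each).

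Of 9 genes around PKR and eIF2 alpha, 2 were called higher. PPP1R15A, which directs a phosphatase to eIF2 alpha and so opposes PKR, was at 40.8, 45.1 and 40.2 TPM in HA-TAZ and 28.0, 28.2 and 25.6 TPM in control libraries. It rose by 0.90 (SE 0.05, limma, Benjamini-Hochberg adjusted p = 0.00268). Its paralogue PPP1R15B rose by 0.29 (limma, adjusted p = 0.0420), but was level as deposited, at 24.7 ± 1.08 and 24.8 ± 1.21 TPM (SD, n = 3 each). EIF2S1, which encodes eIF2 alpha, and the kinase gene EIF2AK4 were not called, at 0.22 and −0.20.

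Of 15 tested modulators of cGAS and STING and other DNA sensors, 3 were called higher. AIM2, a cytosolic DNA sensor that assembles an inflammasome, was at 17.7, 17.9 and 14.6 TPM in HA-TAZ and 7.91, 7.36 and 8.09 TPM in control libraries. It rose by 1.28 (SE 0.10, limma, Benjamini-Hochberg adjusted p = 0.00610), without overlap on either scale. IFI16, a related DNA sensor, rose by 0.71 (limma, adjusted p = 0.0150) and RNASEH2A, a subunit of the enzyme that removes RNA from RNA-DNA hybrids, by 0.33 (0.0413). The call of RNASEH2A was lost with TPM as deposited, at 0.04 (limma, adjusted p = 0.568), with factors from protein-coding genes or from genes averaging 10 TPM or more, without a filter, without trend and whichever library was left out. RNASEH2C (0.31) and SLC19A1 (0.39), a carrier of cyclic dinucleotides, were not called. Of 3 tested genes of the 2-5A system, OAS1 was called, at 0.46 (limma, adjusted p = 0.0452), and OAS2 (0.56) just missed the threshold (limma, adjusted p = 0.0508). The call of OAS1 was lost with TPM as deposited, at 0.25 (limma, adjusted p = 0.163), with both of these sets of factors, without a filter and whichever library was left out. None of the 4 tested interferon receptor genes was called (limma, 1 at an unadjusted p-value under 0.05), with IFNAR1 at 0.18 and IFNLR1 at 0.08.

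Interferon genes themselves lie downstream of these sensors, and all 5 on the list were below the filter. They are described here, with OAS3 and OASL, after their values were seen. IFNB1, the gene of interferon beta, was at 0.559, 0.510 and 0.445 TPM in HA-TAZ and 0.0906, 0.0215 and 0.0325 TPM in control libraries. IFNL1, a type III interferon, was at 0.657, 0.755 and 0.683 TPM in HA-TAZ and 0.118, 0.168 and 0.0633 TPM in control libraries. Both were higher in every HA-TAZ library without overlap, though at levels under 1 TPM. In the authors' deposited table the effect of IFNB1 was 2.46 on the natural log scale (q-value 0.0155) and that of IFNL1 was 1.98 (q-value 0.00401). The means in the authors' deposited table, which pool both groups on the natural log scale, imply 7.10 and 12.8 estimated counts. Single reads weigh in these values, most in the controls, because the effects put fewer counts there than in HA-TAZ libraries. IFNA1 was listed at 0 in every library, and IFNL2 and IFNL3 were at 0.123 TPM or less. OASL was at 1.43, 1.76 and 1.76 TPM in HA-TAZ and 0.418, 0.402 and 0.110 TPM in control libraries. OAS3 was at 0.617, 0.341 and 0.601 TPM against 0.239, 0.280 and 0.140 TPM. The effect of OASL in the authors' deposited table was 1.90 on the natural log scale (q-value 0.000284). For OAS3 it was 1.45 in ENST00000228928.7 (q-value 3.84e-05) and 1.03 in ENST00000548514.1 (q-value 0.531). Without a filter on level, IFNB1, IFNL1 and OASL were called (limma, Benjamini-Hochberg adjusted p = 0.0190, 0.0141 and 0.0239) and OAS3 was not (0.132), where 1.16% of 47371 genes were called higher. Of the 12 list genes below the filter, 4 were higher and 1 was lower without overlap, against 5.15% and 8.5% of all genes with a mean TPM above 0 and under 1.

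**Figure D4:**
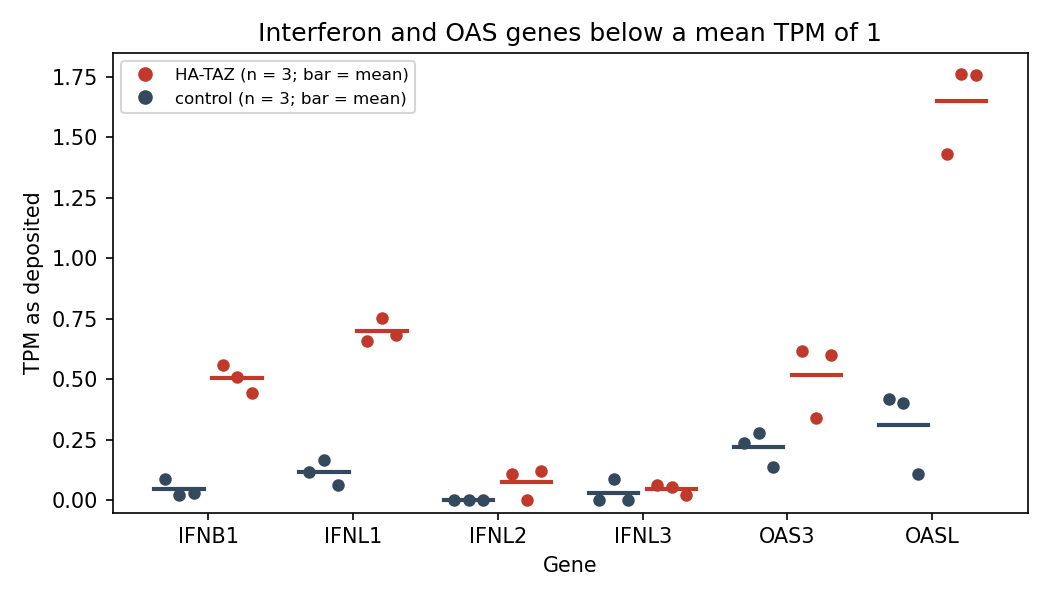
TPM as deposited (y axis) of 6 interferon and OAS genes with a mean under 1 TPM in each of the 3 control and 3 HA-TAZ libraries, with bars for the group means. IFNB1, IFNL1, OAS3 and OASL are higher in all HA-TAZ libraries, and IFNL2 and IFNL3 overlap with the controls.

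The genes whose pattern over the 6 libraries was most like that of IFIH1 on log2(scaled TPM + 1) were ARL6IP5, HIPK2 and RFTN1, with Pearson's r of 0.999, 0.998 and 0.997 across 6 libraries. Those most like TMEM173 were SNX11 (0.994), APOL3 (0.994) and RPTOR (0.992). With 6 libraries in 2 groups such values describe mainly the shared difference between the groups. In all, 423 of 11204 genes had an r of at least 0.95 with IFIH1.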

How the data were processed

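Total RNA of KMS27 cells was depleted of ribosomal RNA and sequenced from stranded paired-end libraries, per the labels' protocols. The submitters' processing notes name kallisto 0.46.0, sleuth 0.30.0 and GRCh37. The annotation release and the strand setting are not given in the sources used here. The authors deposited TPM for 215170 transcripts, which sum to 1000000 in each library and so carry no depth of single libraries. In the authors' deposited table, made with a Wald test per its file name, there are p-values and q-values for each transcript. Per the file headers and values, its effects and means are on a natural log scale, of HA-TAZ over control and of scaled estimated counts. Its standard errors are a score on the same scale, per the file headers.

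TPM was summed per Ensembl gene ID and divided by median-of-ratios factors over 21512 genes above 0 in all libraries. Features with a mean TPM of at least 1 were tested on log2(scaled TPM + 1), a scale that understates changes of low genes, with limma 3.58.1 (intensity trend, two-sided, Benjamini-Hochberg) in R 4.3.3, after a test on simulated data. Factors of transcripts and of alternatives were recomputed over the features and libraries of each fit. For single values the test was a permutation of the library labels, exact and two-sided. Implied estimated counts are sums of the exponential of the authors' means, which pool both groups. Transcript types come from GENCODE release 29 (GRCh38), used for types and overlaps only. Where a list gene had several IDs, the ID in GENCODE 29 was used; for IKBKG this ID is listed at 0. Python 3.11.15, pandas 2.3.3 and matplotlib 3.10.9 were also used. The factors from protein-coding genes, the ratios to MAVS and the sum of both DHX58 IDs were alternatives added after seeing the data. The members and lists were chosen with earlier results of these data known. All members were named, with, for each list, up to 4 called genes by adjusted p and up to 2 uncalled genes by size, for members above the filter the 2 leading and all called transcripts, and for called members the 3 genes of highest Pearson's r with a mean TPM of at least 5. Some items that this rule or the motif search would give are not reported here.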

Additional observations from a re-analysis of the deposited data

How the results depend on the processing

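Called genes numbered 1652, and 3329 with TPM as deposited, 697 without a filter on level and 758 without trend. Leaving out each library gave 117 to 435. The split was 1057 higher and 595 lower, and 261 and 3068 with TPM as deposited, 625 and 822 with factors over genes averaging 10 TPM or more, 660 and 859 with factors over protein-coding genes, 944 and 917 for genes averaging 5 TPM or more and 550 and 147 without a filter. The 2 called members became 1 with factors over genes averaging 10 TPM or more, with factors over protein-coding genes, at a mean TPM of at least 5 and without a filter on level. They became 0 to 1 across the leave-one-out fits. IFIH1 was the remaining member each time. With TPM as deposited the count stayed at 2 but held IFIH1, higher, and MAVS, lower. The 12 called pathway genes became 5 with TPM as deposited, 7 with factors over genes averaging 10 TPM or more, 7 with factors over protein-coding genes and 2 to 7 across the leave-one-out fits. The 1 called member transcript became 0 with TPM as deposited, 0 without a filter on level, 0 in each leave-one-out fit and 2 by the authors' q-value. The median over all genes moves with the scale, and the fits that left out a library held fewer libraries. The cause of the other moves was not tested.

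With TPM as deposited, log2 fold changes turned to −0.23 for MAVS, −0.23 for ZBP1, −0.22 for EIF2AK2, −0.11 for MB21D1, −0.054 for RNF135, −0.045 for PCBP2, −0.072 for EIF2S1, −0.0013 for PPP1R15B, −0.11 for IFNAR1 and −0.21 for IFNLR1. With factors over genes averaging 10 TPM or more they turned to −0.015 for MAVS, −0.0092 for ZBP1 and −0.0036 for EIF2AK2, and with factors over protein-coding genes to −0.016, −0.011 and −0.0051. ZBP1 ran from −0.050 to 0.24 across the leave-one-out fits. No paired analysis was possible because the control columns, though numbered, bear a name found in no label, so which numbered wild type sample each one holds is not known here. The fit with a replicate block was therefore not run.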
